A study of Mus musculus with 6 samples.

Results

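The mural cells of kidney vessels were followed through 10 genes of the deposited table of 24346 gene symbols, chosen by symbol: 4 pericyte genes (Pdgfrb, Rgs5, Cspg4 and Notch3) and 6 contractile smooth muscle genes (Acta2, Tagln, Myh11, Cnn1, Des and Mylk). All 10 were found, once each, and 9 of them averaged 1 FPKM or more (fragments per kilobase of transcript, scaled to sequenced fragments) and were tested; Notch3 averaged less. The series concerns renal congestion in mice. Kidney RNA of C57BL/6 mice was sequenced in 3 libraries from IVCC surgery, a name the labels leave unexpanded, and 3 from Sham surgery. The labels give no age, sex or time after surgery, and whether each replicate is its own animal is not stated, so the p-values reflect library-to-library spread, which may be technical.

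Pericytes wrap the capillaries and, in the glomerulus, have mesangial cells as relatives, whereas vascular smooth muscle cells ring arteries and arterioles. Endothelial cells release platelet-derived growth factor B, which recruits and keeps pericytes through the receptor encoded by Pdgfrb, and vessel-wall cells receive endothelial Notch ligands through Notch3. Contraction follows when myosin light chain kinase, encoded by Mylk, phosphorylates the light chain of smooth muscle myosin, which then pulls on actin filaments. Many genes of that apparatus are switched on by serum response factor (SRF) with its partners of the myocardin family, which bind DNA at the CArG box, a run of A and T bases between CC and GG. In bulk kidney RNA, fewer cells of a type and less RNA per cell cannot be told apart.

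Promoter sequence was looked up because CArG boxes are the shared feature of the contractile programme. RefSeq's promoter table (GRCm38.p6, 250 bases before to 50 after the start of transcription) held windows for 7 of the 10 genes; Pdgfrb, Tagln and Myh11 had no entry. The windows shown are those of the contractile genes Acta2 (chr19:34255324-34255623, minus strand) and Cnn1 (chr9:22099003-22099302, plus strand), of the pericyte gene Rgs5 (chr1:169655251-169655550, plus strand), and, for comparison, of the myosin light chain gene Myl9 (chr2:156775214-156775513, plus strand). Capitals mark a CArG box with at most 1 departure from A or T in its core.
Acta2: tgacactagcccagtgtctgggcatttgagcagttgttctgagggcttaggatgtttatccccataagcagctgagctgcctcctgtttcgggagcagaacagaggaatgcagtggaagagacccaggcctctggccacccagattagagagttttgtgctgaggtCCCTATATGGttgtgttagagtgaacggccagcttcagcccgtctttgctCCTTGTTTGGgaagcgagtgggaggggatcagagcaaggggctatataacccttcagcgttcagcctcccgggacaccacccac
Cnn1: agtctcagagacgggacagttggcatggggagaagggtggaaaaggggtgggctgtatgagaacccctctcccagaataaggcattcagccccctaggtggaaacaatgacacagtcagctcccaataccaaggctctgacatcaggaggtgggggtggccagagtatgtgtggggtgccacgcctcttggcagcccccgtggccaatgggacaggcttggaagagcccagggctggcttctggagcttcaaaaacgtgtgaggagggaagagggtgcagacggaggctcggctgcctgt
Rgs5: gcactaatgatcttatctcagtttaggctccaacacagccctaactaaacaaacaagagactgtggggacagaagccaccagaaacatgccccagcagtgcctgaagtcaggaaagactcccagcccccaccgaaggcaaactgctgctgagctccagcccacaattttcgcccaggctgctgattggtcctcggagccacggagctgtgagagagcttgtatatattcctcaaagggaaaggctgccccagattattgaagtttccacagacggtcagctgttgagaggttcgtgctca
Myl9: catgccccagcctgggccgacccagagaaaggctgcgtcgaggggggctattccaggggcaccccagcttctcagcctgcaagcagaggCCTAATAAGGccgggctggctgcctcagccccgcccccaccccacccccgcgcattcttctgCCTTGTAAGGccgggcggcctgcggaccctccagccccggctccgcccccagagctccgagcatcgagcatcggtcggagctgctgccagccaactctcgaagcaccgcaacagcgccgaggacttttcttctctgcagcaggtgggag

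The Acta2 window held 2 such elements, starting 84 and 34 bases before the start, each with 1 departure in the core. The search reads both strands at once, because the CArG box is its own reverse complement. No other window of the 7 genes held one, which says only that these letters are not in the windows. A perfect CArG box stood in 1.81% of all 27025 genes of the promoter table, and one with at most 1 departure in 11.3%. Among 41 further contractile genes, 35 had a window; 6 of these held a perfect box (Myl9, Myl6, Vcl, Cnn2, Fhl1 and Fhl2) and 9 one with at most 1 departure. The sequence TGGGAA, the core recognised by the Notch effector encoded by Rbpj, was searched on both strands and stood once in the Acta2 window, starting 27 bases before the start and overlapping the nearer CArG element. It occurred in 28.3% of all genes of the table, and in none of the windows of Rgs5, Cspg4 and Notch3.

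No member gene passed the adjustment over all genes. Limma on log2(FPKM + 1) with Benjamini-Hochberg adjustment called 0 of the 9 tested members at an adjusted p under 0.05, against a background of 0% of the 12090 genes tested. The 9 tested members had adjusted p-values of 0.924 to 0.969. At an unadjusted p under 0.05 there were 2 members, Pdgfrb higher and Cnn1 lower in IVCC, against 1.7% of all genes higher and 1.87% lower, 3.56% together. The same 2 genes were the members whose groups did not overlap, which held for 4.09% of all genes in the higher and 4.22% in the lower direction, 8.31% together. The median log2 fold change was 0.28 over the 3 tested pericyte genes and -0.29 over the 6 contractile genes, beside -0.0082 over all genes tested. A single library turned each sign: the pericyte median was -0.017 without Sham replicate 3, and the contractile median was 0.0073 without IVCC replicate 2.

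**Figure D1:**
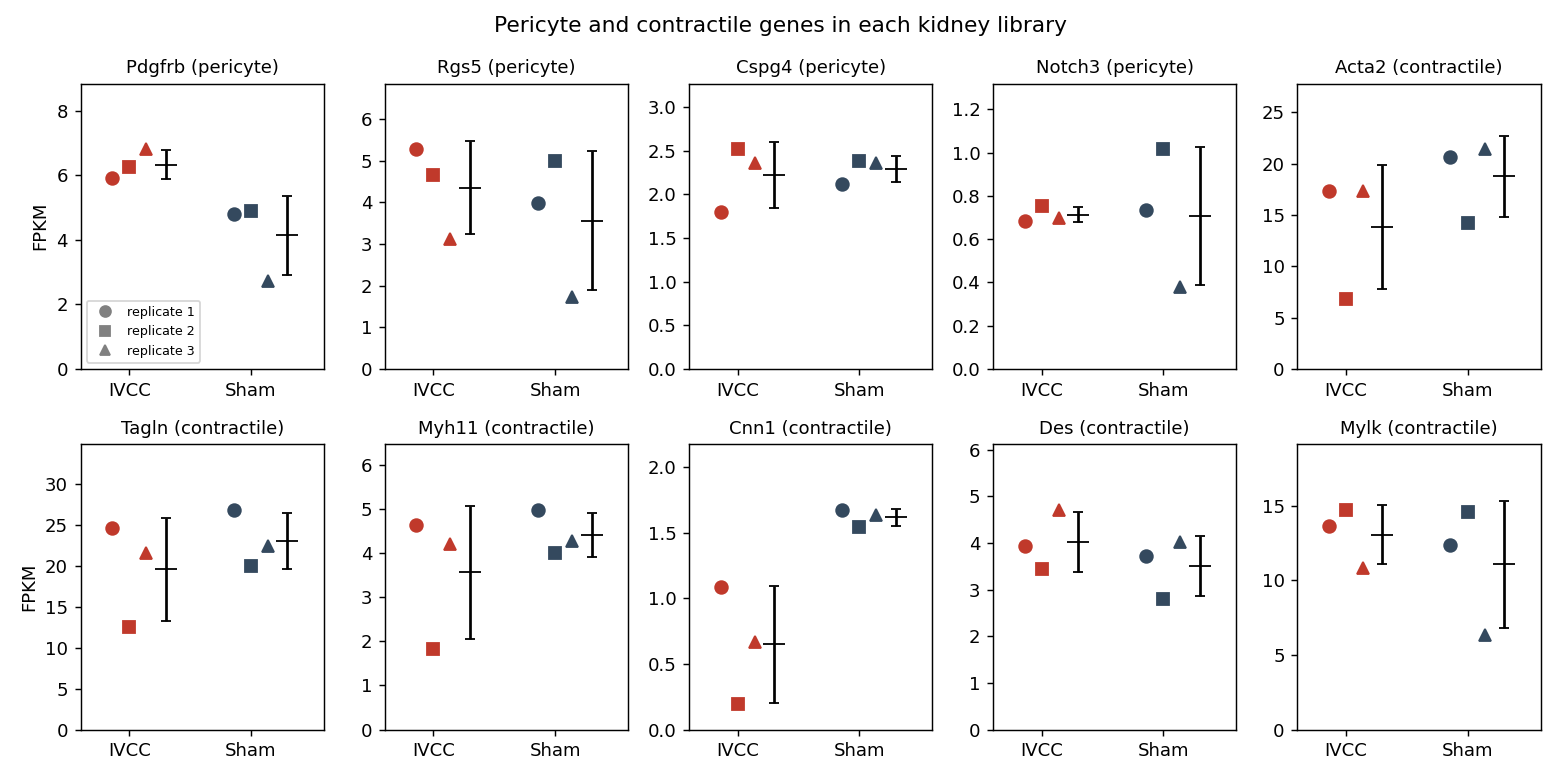
FPKM of the 4 pericyte and 6 contractile genes in each library, IVCC left of Sham, with the marker shape giving the replicate number and the black bar the mean ± SD of 3 libraries. Only Pdgfrb and Cnn1 show no overlap; IVCC replicate 2 is the lowest point for Acta2, Tagln, Myh11 and Cnn1, and Sham replicate 3 for Pdgfrb, Rgs5, Notch3 and Mylk.

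Among the pericyte genes, Pdgfrb, the receptor tyrosine kinase for platelet-derived growth factor, stood at 5.94, 6.26 and 6.81 FPKM in the IVCC libraries, against 4.80, 4.90 and 2.74 FPKM in the Sham libraries. Every IVCC library lay above every Sham library, and Sham replicate 3 lay well below the other two of its group. The means were 6.33 ± 0.440 FPKM in IVCC libraries and 4.14 ± 1.22 FPKM in Sham libraries (SD, n = 3 each). The log2 fold change was 0.54 with a standard error of 0.19 (95% interval 0.094 to 0.99, limma adjusted p = 0.924). Without Sham replicate 3 the fold change was 0.33 on the log2 scale.

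Rgs5, which encodes a regulator that shortens G protein signals downstream of vasoconstrictor receptors, stood at 5.27, 4.67 and 3.11 FPKM in IVCC libraries, against 3.98, 4.99 and 1.72 FPKM in Sham libraries. The groups overlapped, and Sham replicate 3 was again the lowest. Its log2 fold change was 0.28 with a 95% interval of -0.43 to 0.99, and -0.053 without Sham replicate 3, so that 1 library set the sign. Cspg4, the NG2 proteoglycan of the pericyte surface, stood at 1.80, 2.52 and 2.36 FPKM in IVCC libraries and 2.12, 2.39 and 2.36 FPKM in Sham libraries. It was the steadiest of the 10 genes, with a highest library only 1.40 times its lowest, and its log2 fold change of -0.033 had an interval of -0.37 to 0.30. Notch3, the receptor that keeps arterial mural cells mature, stood at 0.686, 0.754 and 0.700 FPKM in IVCC libraries and 0.733, 1.02 and 0.377 FPKM in Sham libraries. The Sham libraries of Notch3 lay on both sides of the IVCC libraries, and with a mean of 0.711 FPKM it was not tested.

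Acta2, the smooth muscle alpha-actin, stood at 17.3, 6.81 and 17.3 FPKM in IVCC libraries, against 20.7, 14.2 and 21.4 FPKM in Sham libraries. The groups overlapped, and IVCC replicate 2 alone lay far below the rest, at less than the level of any other library. The log2 fold change was -0.50 with a standard error of 0.34 (limma adjusted p = 0.924), and -0.089 without IVCC replicate 2. The same library was the lowest for Tagln, the actin-binding protein transgelin, at 24.6, 12.5 and 21.5 FPKM in IVCC libraries against 26.7, 20.0 and 22.3 FPKM in Sham libraries. It was also the lowest for Myh11, the smooth muscle myosin heavy chain, at 4.64, 1.83 and 4.21 FPKM in IVCC libraries against 4.97, 4.0 and 4.27 FPKM in Sham libraries. Without that library the log2 fold changes of Tagln and Myh11 were 0.0092 and 0.0055, against -0.27 and -0.31 with it. Across all genes tested, IVCC replicate 2 was the lowest of the 6 libraries for 26%, and it was the lowest for 4 of the 6 contractile genes.

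Cnn1, which encodes calponin, an actin-binding brake on smooth muscle myosin, stood at 1.09, 0.197 and 0.670 FPKM in IVCC libraries, against 1.67, 1.55 and 1.64 FPKM in Sham libraries. The 3 Sham libraries were nearly level and all 3 IVCC libraries lay below them. Its mean was 0.651 ± 0.444 FPKM in IVCC libraries and 1.62 ± 0.0646 FPKM in Sham libraries (SD, n = 3 each), a ratio of 0.402. The log2 fold change was -0.70 with a standard error of 0.22 (95% interval -1.21 to -0.19, limma adjusted p = 0.924), and -0.49 without IVCC replicate 2. The values rest on few reads: nominal reads, estimated from the steps between low FPKM values, numbered 14, 3 and 10 in IVCC and 19, 18 and 16 in Sham. Set against Acta2 of the same library, Cnn1 had an FPKM ratio of 0.0627, 0.0289 and 0.0387 in IVCC and 0.0809, 0.109 and 0.0767 in Sham. The Cnn1 to Acta2 ratio was therefore lower in every IVCC library than in every Sham library. The Cnn1 to Pdgfrb ratio was 0.183, 0.0315 and 0.0984 in IVCC and 0.349, 0.316 and 0.598 in Sham. Its groups had to separate, because Cnn1 was lower and Pdgfrb higher in every IVCC library than in every Sham library. The Myh11 to Acta2 ratio overlapped, at 0.243 to 0.268 in IVCC and 0.200 to 0.282 in Sham. These ratios were chosen after the values were seen and were not tested, and 3 against 3 libraries cannot give an exact two-sided permutation p below 0.1.

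The remaining contractile genes did not follow Acta2. Des, the intermediate filament protein desmin, which mesangial cells also make, stood at 3.93, 3.43 and 4.70 FPKM in IVCC libraries and 3.72, 2.80 and 4.03 FPKM in Sham libraries. Its groups overlapped, with a log2 fold change of 0.16 and an interval of -0.22 to 0.53, and with 0.060 without IVCC replicate 3 and 0.036 without Sham replicate 2. Mylk stood at 13.6, 14.7 and 10.8 FPKM in IVCC libraries and 12.3, 14.5 and 6.33 FPKM in Sham libraries. IVCC replicate 2, in which Acta2 was lowest, was the highest library for Mylk, and Sham replicate 3, in which Acta2 was highest, was its lowest. The Mylk to Acta2 ratio accordingly ran over 0.789, 2.16 and 0.626 in IVCC and 0.597, 1.02 and 0.296 in Sham. The log2 fold change of Mylk was 0.28 with an interval of -0.36 to 0.92, and -0.045 without Sham replicate 3. Mylk encodes both the smooth muscle kinase and a long form made in many other cell types, and the gene-level FPKM do not separate them.

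**Figure D2:**
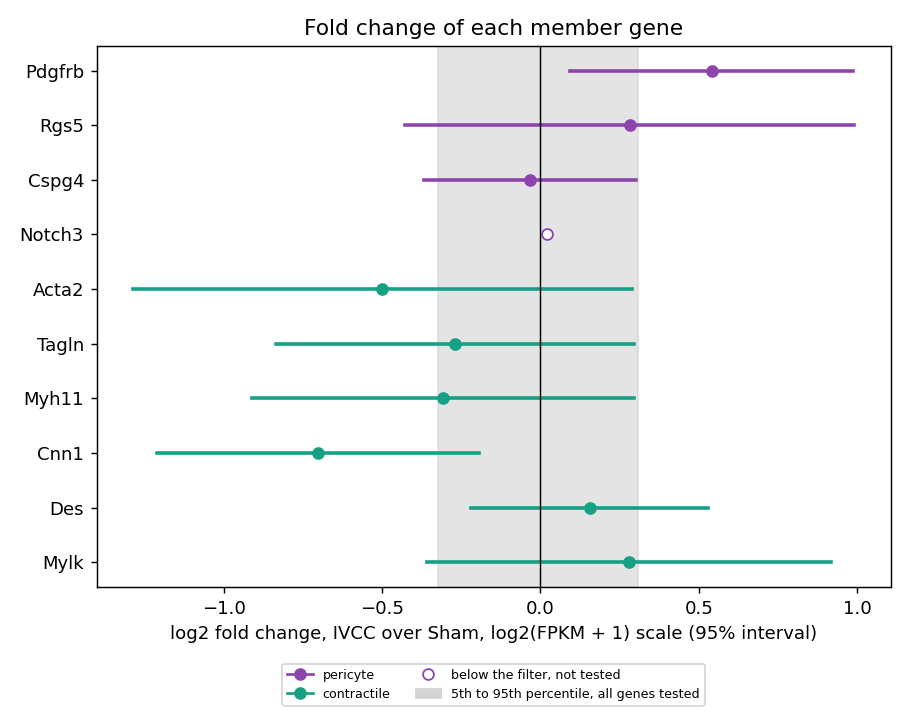
Log2 fold change of each gene, IVCC over Sham, on the log2(FPKM + 1) scale with limma's 95% interval (lines), pericyte genes above contractile genes; the grey band spans the 5th to the 95th percentile of all 12090 genes tested, -0.32 to 0.31. The intervals of Pdgfrb, to the right, and Cnn1, to the left, exclude 0, and those of the other 7 tested genes include it; the open circle is Notch3, which was not tested.

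Levels per transcript length ordered the genes alike in both groups at the top, with Tagln, Acta2 and Mylk at 19.5, 13.8 and 13.1 FPKM in IVCC libraries and 23.0, 18.8 and 11.1 FPKM in Sham libraries. Pdgfrb, Rgs5, Des and Myh11 formed the middle of the order, between 3.56 and 6.33 FPKM in IVCC libraries and 3.51 and 4.42 FPKM in Sham libraries, and neighbours within it did not differ beyond their spread in Sham. Cspg4, Cnn1 and Notch3 were the lowest. The within-library ratio of Acta2 to Pdgfrb was 2.91, 1.09 and 2.54 in IVCC, against 4.31, 2.90 and 7.81 in Sham. The lowest value came from IVCC replicate 2 and the highest from Sham replicate 3, and the groups overlapped by a narrow margin, 2.91 in IVCC against 2.90 in Sham.

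The genes also differed in their pattern over the 6 libraries. Relative to its mean over the 6 libraries, Acta2 lay at -1.07 on the log2(FPKM + 1) scale in IVCC replicate 2, Tagln at -0.69, and Myh11 and Cnn1 at -0.78 each. In Sham replicate 3 these 4 genes lay at 0.10 to 0.45. Mylk, Rgs5 and Pdgfrb showed the opposite arrangement, at 0.25 to 0.31 in IVCC replicate 2 and at -0.79, -0.81 and -0.70 in Sham replicate 3. As a measure of likeness, the root-mean-square difference over the 6 libraries was taken between each gene and the mean of the other genes of a set. Tagln and Myh11 lay 0.12 and 0.14 log2 units from the other contractile genes and 0.45 and 0.47 from the pericyte genes. Mylk lay 0.60 from the other contractile genes but 0.19 from the pericyte genes. Des and Cspg4 varied little and lay about equally far from both sets, 0.32 each.

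**Figure D3:**
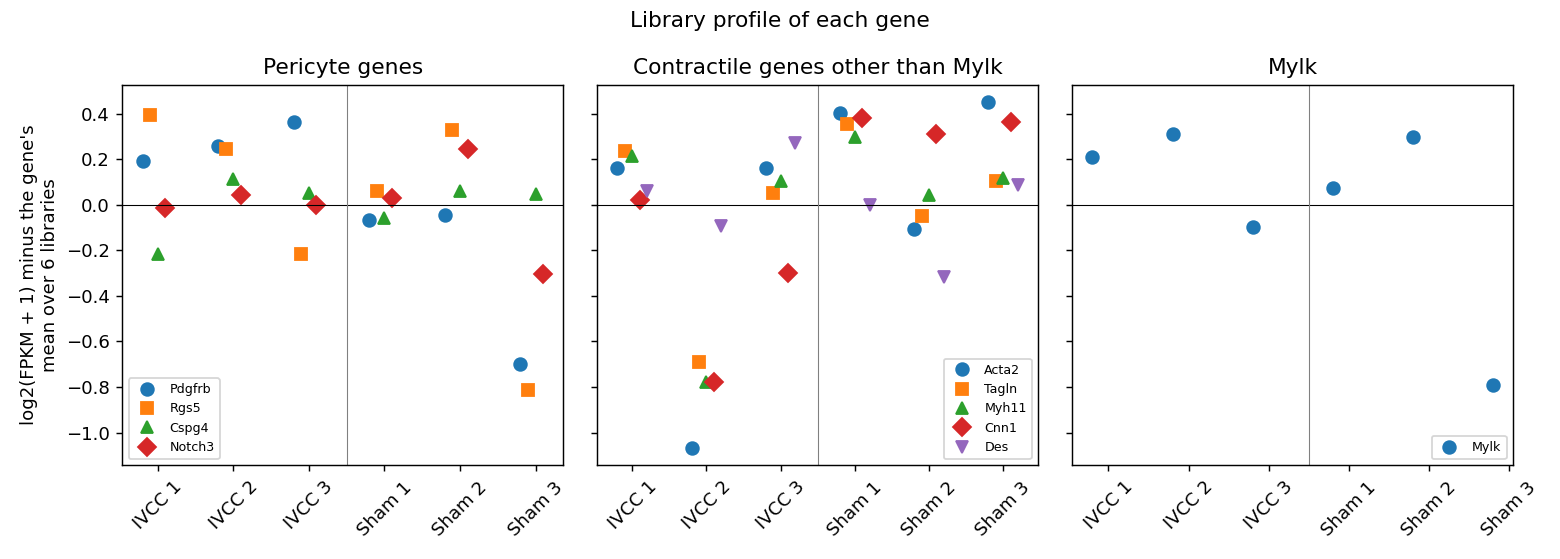
Each gene's log2(FPKM + 1) minus its mean over the 6 libraries, in the 3 IVCC and then the 3 Sham libraries, for pericyte genes, contractile genes other than Mylk, and Mylk. Acta2, Tagln, Myh11 and Cnn1 lie between -1.07 and -0.69 in IVCC replicate 2, whereas Pdgfrb, Rgs5 and Mylk lie between -0.81 and -0.70 in Sham replicate 3.

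**Figure D4:**
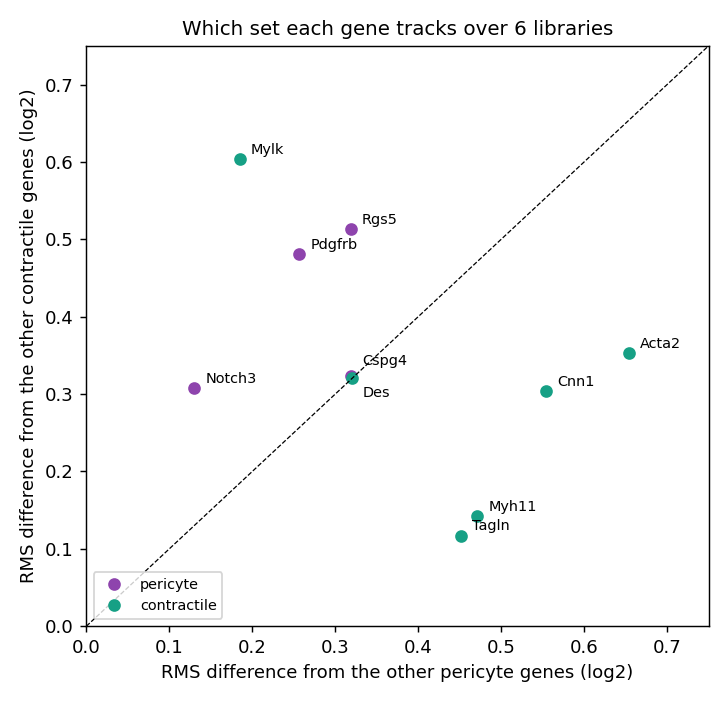
Root-mean-square difference, in log2 units over 6 libraries, of each gene from the mean of the other pericyte genes (horizontal) and of the other contractile genes (vertical); genes above the dashed line of equality are nearer to the pericyte genes. Mylk, a contractile gene, stands at 0.19 and 0.60, among the pericyte genes, and Des and Cspg4 stand on the line.

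Both libraries that set these patterns also stood out across all genes. Sham replicate 3 was the lowest library for 25.6% and the highest for 36.2% of the 12090 genes tested, while IVCC replicate 2 was the highest for 24.4%. Sham replicate 3 had the fewest nominal reads, 6080000, against 8200000 to 9040000 in IVCC and 6920000 and 7140000 in the other Sham libraries. Its levels dropped with transcript length, by a slope of -0.149 in log2 per doubling of length, whereas those of IVCC replicate 2 had the steepest upward slope, 0.120. The median basic transcript in GENCODE M21 is 5415 bases long for Pdgfrb, 2409.5 for Rgs5 and 4722 for Mylk, and 2035 for Acta2, 1595 for Tagln, 6450 for Myh11 and 1803 for Cnn1. The part of transcript length in the pattern was not tested. After correction for length and GC content, Sham replicate 3 lay at -0.52 for Pdgfrb, -0.84 for Rgs5 and -0.62 for Mylk, at -0.12 for Tagln, against 0.10 before correction, and at 0.25 for Cspg4, against 0.047 before it. IVCC replicate 2 lay at -0.99 for Acta2, -0.50 for Tagln, -0.94 for Myh11 and -0.59 for Cnn1, and at 0.14 for Pdgfrb and 0.17 for Mylk, against 0.26 and 0.31 before correction. The corrected log2 fold changes were 0.42 for Pdgfrb (standard error 0.16, limma adjusted p = 0.790) and -0.59 for Cnn1 (standard error 0.19, limma adjusted p = 0.738). Those of Tagln, Mylk and Cspg4 were -0.14, 0.17 and -0.19, against -0.27, 0.28 and -0.033 before correction. Those of Rgs5, Acta2, Myh11 and Des were 0.31, -0.42, -0.44 and 0.13.

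Genes with library patterns most like those of the members were looked up over the whole table. Among 11224 other named genes, the pattern of the 6 contractile genes was most closely followed by Phlda2, Hoxa2, Sparcl1, Tinagl1 and Aifm2, at 0.0586 to 0.091 log2 units. Phlda2, for example, stood at 21.9, 13.2 and 21.1 FPKM in IVCC libraries and 24.7, 21.3 and 23.0 FPKM in Sham libraries, with the same low value in IVCC replicate 2. The pattern of the 4 pericyte genes was most closely followed by Asxl1, Camta2, Cd200, Pard3b and Adcy6, at 0.0096 to 0.0426 log2 units. Asxl1, a chromatin regulator expressed widely, stood at 5.80, 6.23 and 5.53 FPKM in IVCC libraries and 5.37, 6.11 and 3.71 FPKM in Sham libraries. The likeness over 6 libraries is a description.

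Of 18 further pericyte genes, 12 were tested, 8 with a fitted value above 0 and 4 below, against 48.4% above 0 for all genes, and 0 passed the adjusted threshold. The median log2 fold change was 0.11. In 3 of the 12 the groups did not overlap, and all 3 were lower in IVCC, against 4.22% of all genes lower without overlap. Gja4, the connexin 37 of arterial endothelium and mural cells, stood at 2.04, 1.26 and 1.91 FPKM in IVCC libraries, against 2.78, 2.42 and 2.41 FPKM in Sham libraries (log2 fold change -0.38, standard error 0.16, limma adjusted p = 0.924). Abcc9 and Kcnj8 encode the sulfonylurea receptor and the pore of the ATP-sensitive potassium channel that relaxes mural cells. Abcc9 stood at 1.22, 1.83 and 1.45 FPKM in IVCC libraries, against 2.18, 2.23 and 1.84 FPKM in Sham libraries. Kcnj8, named after its values were seen, stood at 3.35, 3.77 and 3.50 FPKM in IVCC libraries, against 4.58, 3.90 and 4.58 FPKM in Sham libraries. Both channel genes were thus lower in all 3 IVCC libraries, while Pdgfrb was higher. The nearest values of the groups were 1.83 against 1.84 FPKM for Abcc9 and 3.77 against 3.90 FPKM for Kcnj8. Their log2 fold changes were -0.31 and -0.24, with standard errors of 0.15 and 0.12 (limma unadjusted p = 0.0782 and 0.0901, adjusted p = 0.924 each). Among the 8 genes above 0, Ndufa4l2 averaged 4.04 ± 0.345 FPKM in IVCC libraries and 3.23 ± 0.896 FPKM in Sham libraries, with overlap. The angiotensin receptor gene Agtr1a, which tubule cells also express, averaged 25.7 ± 2.54 FPKM in IVCC libraries and 21.9 ± 3.55 FPKM in Sham libraries.

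All 5 mesangial genes were tested, 4 with a fitted value above 0 and 1 below, with a median log2 fold change of 0.04. Over all genes tested, 48.4% were above 0, 4.09% were higher without overlap and 4.22% lower without overlap. Itga8, the integrin alpha 8 chain of mesangial cells, stood at 2.51, 3.14 and 2.60 FPKM in IVCC libraries, against 1.63, 2.08 and 2.01 FPKM in Sham libraries, without overlap. Hopx, a homeodomain-only protein, was lower without overlap, at 4.75, 5.62 and 6.48 FPKM in IVCC libraries against 7.43, 7.37 and 8.31 FPKM in Sham libraries. Their log2 fold changes were 0.37 and -0.40 (standard errors 0.14 and 0.13, limma adjusted p = 0.924 each).

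A list of platelet-derived growth factor ligands, the receptor gene Pdgfra, the receptor-like gene Pdgfrl and Lrp1, a lipoprotein receptor-related protein that associates with the receptor encoded by Pdgfrb, had 6 of 7 genes tested. Of these 4 were above 0 and 2 below, against 48.4% above 0 for all genes, with a median log2 fold change of 0.22. Pdgfra and Lrp1 were higher in IVCC without overlap, against 4.09% of all genes. Pdgfb, the endothelial ligand of the receptor encoded by Pdgfrb, stood at 7.94, 8.92 and 7.13 FPKM in IVCC libraries and 6.95, 6.75 and 7.35 FPKM in Sham libraries, with overlap. Pdgfra, the related receptor of interstitial fibroblasts, stood at 2.49, 3.62 and 2.65 FPKM in IVCC libraries, against 1.90, 2.06 and 1.23 FPKM in Sham libraries, and its groups did not overlap. Its log2 fold change of 0.52 (standard error 0.18, limma adjusted p = 0.924) was close in size to that of Pdgfrb. The ratio of Pdgfrb to Pdgfra overlapped between the groups, at 1.73 to 2.57 in IVCC and 2.24 to 2.53 in Sham. The ratio of Pdgfrb to the endothelial junction gene Pecam1 also overlapped, at 0.389 to 0.430 in IVCC and 0.254 to 0.414 in Sham.

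In the Notch pathway 10 of 14 genes were tested, 9 above 0 and 1 below, with a median log2 fold change of 0.14 and 3 genes higher in IVCC without overlap. Of all genes tested 48.4% were above 0 and 4.09% higher without overlap. Dll4, an endothelial Notch ligand, stood at 3.65, 3.74 and 3.34 FPKM in IVCC libraries, against 3.23, 2.38 and 2.2 FPKM in Sham libraries. Notch1 averaged 1.65 ± 0.223 FPKM in IVCC libraries and 1.25 ± 0.193 FPKM in Sham libraries. Sham replicate 3 was the lowest library for 8 of these 10 genes, against 25.6% of all genes. The target gene Hes1 was the 1 gene below 0, at 15.7 ± 3.13 FPKM in IVCC libraries and 18.3 ± 4.66 FPKM in Sham libraries, and Heyl, the mural Notch target, was not tested, at 0.912 ± 0.302 FPKM in IVCC libraries and 0.843 ± 0.150 FPKM in Sham libraries. Among 8 relatives of Rgs5, 5 were tested, 4 above 0 and 1 below, and all 5 overlapped between groups.

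Of 41 further contractile and actin-regulating genes 33 were tested, 20 above 0 and 13 below, with a median log2 fold change of 0.04. The 8 of them that were lowest in IVCC replicate 2 were Myl9, Myl6, Tpm1, Tpm2, Ppp1r14a, Mustn1, Pcp4l1 and Rhoa. These 8 of 33 were near the share of 26% over all genes. Another 12 were lowest in Sham replicate 3, against 25.6% of all genes. Tpm1, a tropomyosin that lies along actin filaments, was lower in IVCC without overlap, at 54.3, 48.7 and 60.5 FPKM against 61.6, 65.0 and 70.2 FPKM in Sham libraries. Tpm2, the partner tropomyosin, overlapped, at 7.0, 3.89 and 9.03 FPKM in IVCC libraries and 7.97, 7.41 and 10.1 FPKM in Sham libraries. Fhl2, an actin-linked LIM protein and cofactor of SRF, was higher without overlap, at 11.7, 13.5 and 11.3 FPKM in IVCC libraries against 9.42, 7.40 and 7.41 FPKM in Sham libraries. Its log2 fold change was 0.54 with a standard error of 0.13 (limma unadjusted p = 0.00412, adjusted p = 0.924). Smtn, the smooth muscle protein smoothelin, was named after its values were seen as the other of the 2 genes of 33 higher without overlap, near the share of 4.09% over all genes, at 24.3 ± 1.27 FPKM in IVCC libraries and 22.6 ± 0.121 FPKM in Sham libraries. Srf itself averaged 7.27 ± 0.824 FPKM in IVCC libraries and 7.27 ± 1.19 FPKM in Sham libraries, and Myocd was at or near 0 in every library. The SRF coactivator gene Mkl1 averaged 2.82 ± 0.0609 in IVCC libraries and 2.73 ± 0.272 FPKM in Sham libraries. Of the 8 genes of SRF and its partners 6 were tested, 5 above 0 and 1 below, and their groups all overlapped.

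**Figure D5:**
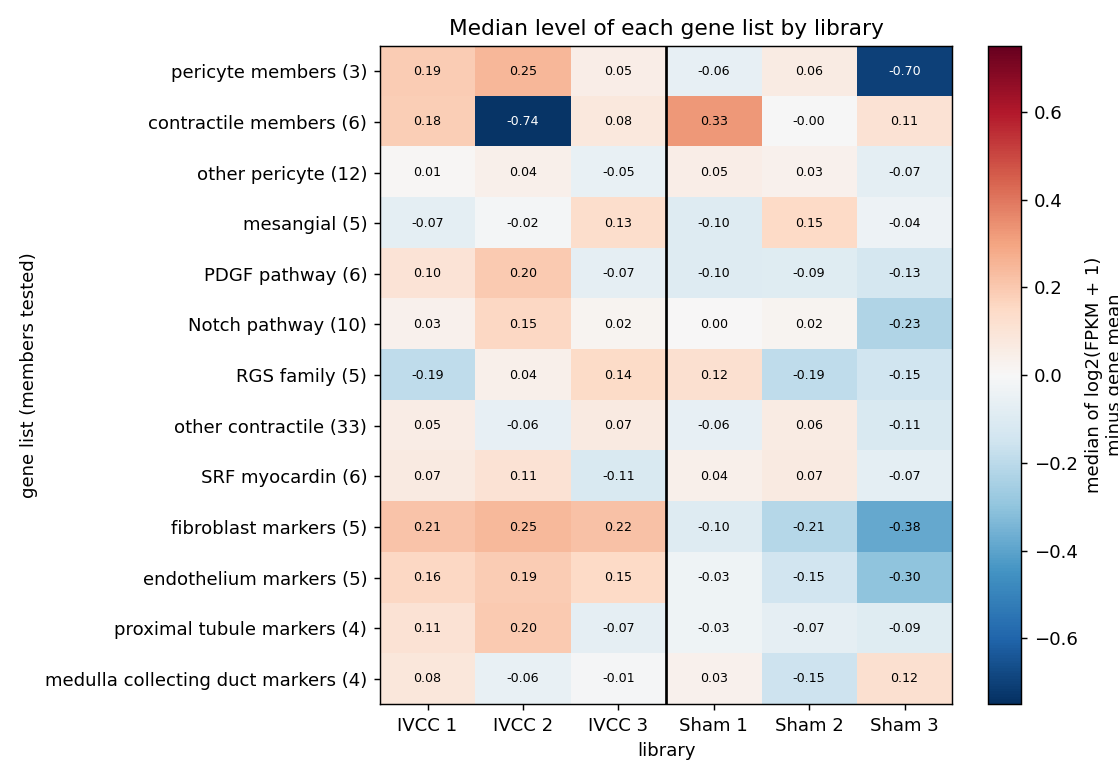
Median over the tested genes of each list of log2(FPKM + 1) minus the gene's mean, in the 3 IVCC and then the 3 Sham libraries; the number of genes tested stands in parentheses. The contractile members reach -0.74 in IVCC replicate 2 and the pericyte members -0.70 in Sham replicate 3, and fibroblast and endothelial markers are above 0 in all 3 IVCC and below 0 in all 3 Sham libraries.

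Markers of other cells that could carry these genes were read in the same libraries. Fibroblast markers had 5 of 6 genes tested, 4 above 0 and without overlap. Of all genes tested 48.4% were above 0 and 4.09% higher without overlap. The summed fibroblast level was 37.1 to 42.8 FPKM in IVCC libraries and 31.9 to 35.3 FPKM in Sham libraries, without overlap, as for Pdgfrb. Its largest part was Dcn, the 1 gene below 0, at 18.2 ± 2.55 FPKM in IVCC libraries and 20.0 ± 0.55 FPKM in Sham libraries. Endothelial markers had 5 of 5 genes tested, all above 0, with sums of 88.7 to 94.7 FPKM in IVCC libraries and 77.9 to 86.0 FPKM in Sham libraries. The largest part of these sums was Emcn, at 55.2 ± 1.16 FPKM in IVCC libraries and 52.9 ± 4.90 FPKM in Sham libraries, with overlap. Pecam1 and Cdh5 were higher without overlap, and Kdr and Tie1 overlapped. The part of fibroblasts and endothelium in the level of Pdgfrb was not tested. Urothelial markers, which accompany the smooth muscle of the renal pelvis, had 1 of 8 genes tested. That gene, Psca, stood at 0, 0.180 and 0.668 FPKM in IVCC libraries and 2.625, 0.425 and 3.25 FPKM in Sham libraries, with overlap. Its log2 fold change was -1.16 with a standard error of 0.42 (limma unadjusted p = 0.0250, adjusted p = 0.924). The urothelial sums were 1.10 to 2.18 FPKM in IVCC libraries and 1.35 to 11.4 FPKM in Sham libraries. The highest sum was in Sham replicate 3, where Upk2 was 2.19 FPKM and elsewhere at 0. The sum was lowest in IVCC replicate 2, the library with the lowest Acta2, at 1.10 FPKM. It was 1.35 FPKM each in IVCC replicate 1 and Sham replicate 2, where Acta2 was 17.3 and 14.2 FPKM. The sums of IVCC replicate 3, Sham replicate 1 and Sham replicate 3 were 2.18, 3.33 and 11.4 FPKM. Acta2 in those libraries was 17.3, 20.7 and 21.4 FPKM. The part of pelvic tissue in the contractile genes was not tested. Visceral smooth muscle actin, Actg2, was too low to be tested, at 0.109, 0 and 0.587 FPKM in IVCC libraries and 0.512, 0.373 and 0.732 FPKM in Sham libraries. As for Acta2, the lowest library was IVCC replicate 2 and the highest was Sham replicate 3. Of 10 skeletal muscle markers Myh1, Myh2, Myh4 and Ckm were at 0 in every library, with sums of 2.02 to 3.46 FPKM in IVCC libraries and 2.19 to 3.43 FPKM in Sham libraries, mostly from Mylpf. The adipocyte genes Adipoq, Plin1, Cfd and Lep were also at 0, and the adipose sums of 74.8 to 139 FPKM in IVCC libraries and 85.9 to 140.3 FPKM in Sham libraries came from Fabp4, which endothelium also expresses. Of 5 genes of the medulla and collecting duct 4 were tested, 2 above 0 and 2 below, with sums of 1385 to 1530 FPKM in IVCC libraries and 1132 to 2035 FPKM in Sham libraries. Aqp2 was the 1 gene of the 4 that was lowest in IVCC replicate 2, at 138.5, 75.6 and 130.3 FPKM in IVCC libraries and 185.4, 107.3 and 139.9 FPKM in Sham libraries. Aqp3 was lowest in Sham replicate 3, Umod was lowest in Sham replicate 2, and Slc12a1 was lowest in IVCC replicate 3 and highest in IVCC replicate 2. Renin cells, which are modified smooth muscle cells, were marked by Ren1 and Akr1b7. Ren1 stood at 101, 98.6 and 116.8 FPKM in IVCC libraries, against 58.5, 59.3 and 55.7 FPKM in Sham libraries. Its log2 fold change was 0.85 (limma adjusted p = 0.790), with no low value in IVCC replicate 2. Akr1b7 overlapped, at 4.9 ± 0.82 FPKM in IVCC libraries and 4.4 ± 0.60 FPKM in Sham libraries. Proximal tubule markers had 4 of 4 genes above 0, with sums of 2856 to 2971 FPKM in IVCC libraries and 2521 to 2646 FPKM in Sham libraries.

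In the annotation, Acta2 spans chromosome 19 from 34241090 to 34255590 on the minus strand, Cnn1 chromosome 9 from 22099216 to 22109630 on the plus strand, and Mylk chromosome 16 from 34745210 to 35002420 on the plus strand (GENCODE M21, GRCm38). Tagln overlaps Pcsk7, and Notch3, Des and Mylk overlap lesser known genes, all on the opposite strand. The library kit keeps strand, but whether reads were counted by strand is not given in the sources used here.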

How the data were processed

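Total RNA of 6 mouse kidney samples was read single-end from libraries made with a TruSeq stranded mRNA kit, per the labels' protocols. The authors deposited 1 table of FPKM. The submitters' processing notes name Cufflinks 2.2.1, SAMtools 0.1.19, TopHat2 2.0.13, Bowtie2 2.2.3 and the build mm10 but no role for any; annotation, filters and strand setting: not given in the sources used here. Groups and replicate numbers come from the titles.

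Symbols averaging 1 FPKM or more (12090 of 24346) were compared with limma 3.58.1 in R 4.3.3 on log2(FPKM + 1), two-sided, with a variance trend and Benjamini-Hochberg adjustment over all of them at 0.05. Folds on this scale understate low genes. The test was tested on simulated data. FPKM carry no depth; nominal reads were fitted to the steps between low values, assuming 200 bp fragments, with 77.0% to 79.1% of those values whole within 0.1 read, too few for a count test. Length and GC content came from GENCODE M21 (96.3% of tested genes) and were corrected by splines with 3 degrees of freedom each. Further named genes were, per list, the up to 2 genes with the smallest p in each direction, the 2 most abundant, and those of nearest pattern; others are marked. Not every gene so taken is named. Members and lists were chosen with earlier results of these data known. Alternatives were pseudocounts, filters, scalings, variance models, a replicate block and left-out libraries.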

Additional observations from a re-analysis of the deposited data

How the results depend on the processing

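No tested member passed the adjusted threshold under any setting in which it was fitted (smallest limma adjusted p = 0.127, Cnn1 with the replicate block), and Pdgfrb stayed above 0, Cnn1 below 0 and Des above 0 throughout. Genes called over the whole table numbered 0 with all libraries, 1 with the replicate block plus length and GC correction, and 0 to 4 when 1 library was left out. With 1 library left out the pericyte median (0.28 with all) lay between -0.017 and 0.52, the low end without Sham replicate 3, and the contractile median (-0.29 with all) between -0.47 and 0.0073, the high end without IVCC replicate 2. Acta2 stood at -0.70 to -0.089 and Des at 0.036 to 0.24. The fold changes of Rgs5 (-0.053 to 0.52), Cspg4 (-0.098 to 0.066), Tagln (-0.45 to 0.0092), Myh11 (-0.49 to 0.0055) and Mylk (-0.045 to 0.50) crossed 0 in those fits, which hold fewer libraries; the cause was not tested. Without both IVCC replicate 2 and Sham replicate 3, a setting chosen after seeing the data, 3 genes were called, the pericyte median was -0.083, and Rgs5, Acta2 and Mylk stood at -0.11, 0.011 and -0.13. TPM scaling put Cspg4 at 0.092, but moved the median of all genes to 0.15, and made the genes at an unadjusted p under 0.05 split 276 higher and 85 lower, against 205 and 226 on FPKM. Pseudocounts of 0.1 and 5 gave Cnn1 log2 fold changes of -1.41 and -0.23. Same-numbered libraries correlated at -0.107, 0.343 and 0.323 in their deviations from group means. IVCC replicates 2 and 3 correlated best with their own numbers, and IVCC replicate 1 did not. The labels do not say whether the numbers pair libraries, and the main fit did not pair them. With the replicate block 2388 genes had an unadjusted p under 0.05, against 431 without it, and 0 passed adjustment. Pdgfrb and Acta2 then had limma adjusted p-values of 0.175 and 0.162. The filter at 5 FPKM left 1 pericyte and 3 contractile genes, and Notch3 was fitted only with no filter (log2 fold change 0.021). Depth limits Cnn1 most, at 3 nominal reads in IVCC replicate 2.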
